A study of Mus musculus with 18 samples.

Results

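RNA sequencing counts of F4/80-low cystic regions were compared with those of non-cystic regions cut from the same 3 mouse kidneys. The comparison used the 12 libraries whose titles name these region types, 6 of each, out of 18 libraries in the series. Each kidney gave 2 libraries of each region type, and these were summed so that the kidney was the unit of replication. Of the 32285 genes in the deposited table, 16034 had enough counts to be tested. F4/80 is a surface protein of macrophages, encoded by Adgre1, and the other 6 libraries came from cystic regions with high F4/80 signal.

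All region types, the non-cystic ones included, came from male C57BL/6 mice with the genotype Pkd1 KO, so no sample here has an intact Pkd1 gene by its label. The line, iKspCre-Pkd1del, carries a tamoxifen-dependent Cre restricted to the kidney and LoxP sites around Pkd1 exons 2 to 11. Tamoxifen was given by gavage at 12.5 mg/kg on postnatal days 18 and 19, and kidneys were taken while cysts were still mild on MRI. Kidneys 1 and 3 have a labelled age of 269 and kidney 2 of 297, with no unit. Kidneys are numbered in the labels, with no word on whether each came from a different mouse. The libraries are labelled as biological replicates 1 and 2 of a kidney and region. They share a kidney, so a difference between them covers position in that kidney and handling, not a second animal.

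Pkd1 encodes polycystin-1, a membrane protein of the tubular epithelium and its primary cilium, and its loss makes tubules widen into cysts. Cyst growth is known to go with injury of the neighbouring tubules, deposition of extracellular matrix and recruitment of macrophages by chemokines released from the epithelium. The regions with low F4/80 signal are those where cysts lie in tissue with few macrophages by that stain.

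Library totals ranged from 5366651 to 9002054 counts in non-cystic and from 7186518 to 9188813 counts in F4/80-low regions, with 17070 to 19594 and 17804 to 19458 genes detected. Summed markers of the proximal tubule were present in all 12 libraries, at 51675 to 97912 CPM (counts scaled to library size, with trimmed mean of M values factors) in non-cystic and 37143 to 89245 CPM in F4/80-low regions. Cdh16, the kidney cadherin, had 356 ± 30.6 CPM (SD, n = 3 kidneys) in non-cystic and 332 ± 47.4 CPM in F4/80-low regions. Mitochondrially encoded genes took 10.6 to 15.4% of the counts in non-cystic and 7.71 to 11.1% in F4/80-low libraries. On the first principal component of the 18 libraries, which held 51.7% of the variance, the F4/80-low library of kidney 2 replicate 2 had the highest value of its group, 7.88, with the other 5 spread between -52.98 and -13.36. In that library Spp1, the gene of the secreted phosphoprotein osteopontin, took 8.90% of all counts, against 0.241 to 2.09% in the other 5. Of the 75 called genes named here, 18 kept their calls without this library (Krt20, Cd44, Anxa2, Col3a1, Col1a1, Col1a2, Ltbp2, Mgp, Dcn, Ccl12, Ccr2, H2-DMb1, Ms4a7, Aif1, Ubd, Ptgds, Dpysl3 and Stc2) and 57 lost them, which holds for every other gene called below. The library kit does not mark strand, so reads of overlapping genes cannot be told apart. Among the 101 genes named here, 23 overlap a gene on the opposite strand (Pkd1, Jun, Cxcl10, Vcam1, Anxa2, Atp6v1c2, Ltbp2, Loxl2, Col4a1, Des, Cxcl16, Il34, H2-DMa, Psmb8, Cx3cr1, Gbp2, Icam1, Cp, Pkhd1, mt-Co1, Edn1, Mmp11 and Chchd10) and 7 a gene on the same strand (Spp1, Col3a1, Slpi, Loxl2, Cd74, Gbp7 and Rhbg), and their values are uncertain to that extent.

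Adgre1 had 1.51 to 4.06 CPM in the 6 non-cystic libraries, with a median of 2.32, and 3.14 to 14.7 CPM in the 6 F4/80-low libraries, with a median of 5.94. It was above 0 in all 12, and 4 of the 6 F4/80-low libraries lay above every non-cystic one. The log2 fold change was 1.36 ± 0.30 (SE), which did not pass edgeR's quasi-likelihood test (adjusted p = 0.0647), but passed in 7 of 28 alternative analyses. The regions were dissected by F4/80 signal, so this level describes the dissection. Pkd1 had 6.31 ± 1.32 CPM in non-cystic and 7.16 ± 2.01 CPM in F4/80-low regions (SD, n = 3 kidneys). Counts per gene also cover exons outside the deleted part and both groups are knockouts, so this level checks no label.

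The differences ran almost wholly in 1 direction. In F4/80-low regions 242 genes (1.51% of those tested) were higher and 4 genes (0.0249%) were lower at an adjusted p below 0.05 by edgeR's quasi-likelihood test, and each of the 246 differed in the same direction in all 3 kidneys. Of the higher genes 136 rose by 2 to 4-fold, 80 by 4 to 16-fold and 22 by more than 16-fold, with a median log2 fold change of 1.84 against 0.00 over all tested genes. Without adjustment, 1499 genes were higher and 376 lower at p below 0.05. The median log2 difference of the 242 genes was 1.83 in kidney 1, 1.71 in kidney 2 and 1.95 in kidney 3. Among them 232 are protein coding. Counts of called genes in the lists below stand beside these shares of 1.51% higher and 0.0249% lower. A single higher gene in a list is not read as a result about that list. The plot of fold change against level shows where the called genes lie.

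**Figure D1:**
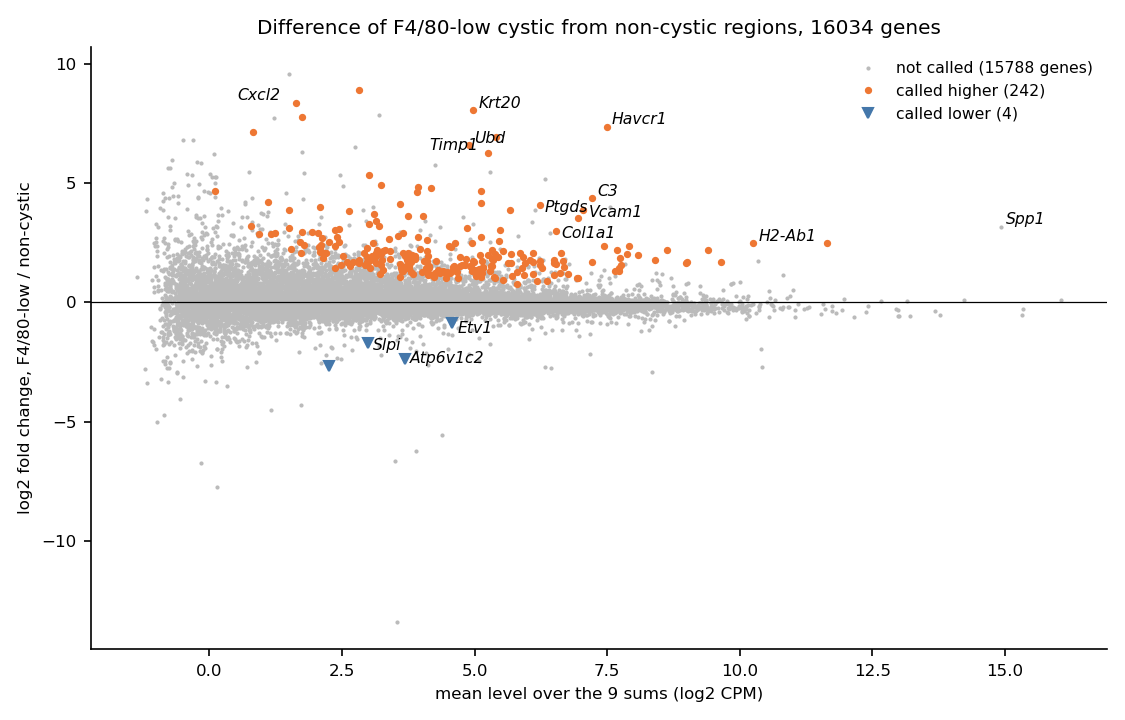
Log2 fold change of F4/80-low cystic over non-cystic regions (vertical axis) against the mean log2 CPM over the 9 sums of a kidney and region (horizontal axis), 1 point per tested gene. The 242 genes called higher (orange) lie above 0, the 4 called lower (blue triangles) below 0, and Spp1, at the right, was not called.

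How many genes passed depended on single libraries. Without the F4/80-low library of kidney 2 replicate 2, 31 genes were higher and 0 lower, of which 30 were among the 246. All 246 kept their direction and the median of the 242 was 1.56. Without the F4/80-low library of kidney 3 replicate 1, 76 were higher. Without the non-cystic library of kidney 2 replicate 1 the number was 129 and without that of kidney 2 replicate 2 it was 381, while 356 were higher without the F4/80-low library of kidney 3 replicate 2. The DESeq2 Wald test on the same sums called 601 genes higher and 74 lower, among them all 246. Only Ubd, Ptgds and Dpysl3 were called in all 28 alternative analyses.

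Separation of the libraries was also counted without a model. All 6 F4/80-low libraries lay above all 6 non-cystic libraries for 285 genes (1.78% of those tested), 124 of them among the 242, and all 6 lay below for 67 genes (0.418%). Leaving out kidney 2 replicate 2 of the F4/80-low libraries, the remaining 5 lay above all 6 non-cystic ones for 313 genes and below for 78. With a library left out these counts can only stay or rise, so they do not measure how much rests on that library. Relative to the mean of the non-cystic libraries, the median of the 242 genes on the log2 scale was 1.53 and 1.64 in the libraries of kidney 1, 1.01 and 2.32 in those of kidney 2, and 1.91 and 1.24 in those of kidney 3. The 2 F4/80-low libraries of kidney 2 were thus the lowest and the highest of the 6. These genes were chosen by their difference, so the values describe how evenly it was spread.

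Ptgds, the prostaglandin D2 synthase gene, had the smallest p of all genes. Its 6 non-cystic libraries ranged from 2.07 to 7.29 CPM (median 3.85) and its 6 F4/80-low libraries from 13.5 to 139 CPM (median 68.2), with no overlap. The log2 fold change was 4.08 ± 0.21 (adjusted p = 4.96e-05, quasi-likelihood test). Among the F4/80-low libraries Ptgds was lowest in kidney 2 replicate 2, and without that library the fold change was 4.29. Ubd, the ubiquitin-like gene FAT10 that is induced by inflammatory cytokines, had 0 to 0.616 CPM in non-cystic and 5.55 to 48.1 CPM in F4/80-low libraries, a log2 fold change of 6.59 ± 0.47 (adjusted p = 0.000421). Dpysl3, a cytoskeletal regulator of migrating cells, had 1.55 to 8.99 CPM against 15.6 to 54.7 CPM and rose by 3.04 ± 0.24 (adjusted p = 0.000421). Aoc1, the diamine oxidase gene, had 0.168 to 0.935 CPM against 3.30 to 24.4 CPM, with a fitted log2 change of 4.66 ± 0.32 (adjusted p = 0.000301). In all 4 genes the libraries of the region types did not overlap, and Aoc1 lost its call without kidney 2 replicate 2 (adjusted p = 0.0969).

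The promoters of 3 called genes are shown because each holds a motif found more often in the called genes than in all tested genes. A promoter sequence, from 250 bases before to 50 bases after a RefSeq start in GRCm38.p6, was found for 173 of the 242 higher genes and for 11877 tested genes. The letters TGANTCA, the core of sites bound by Fos and Jun, stood on either strand in 16.2% of the promoters of higher genes and in 5.39% of all. The core of interferon-stimulated elements, 2 copies of GAAA with 2 bases between them, stood in 9.83% against 3.17%, TTCNNNGAA, the core of STAT sites, in 11.6% against 7.08%, and the NF-kB motif in 38.7% against 32.3%. CCAAT stood in 31.8% against 38.2% and GGAATG, the core of TEAD sites, in 11.6% against 12.3%. Matches of different motifs may share bases. The promoters of the higher genes had a median GC content of 54.3% against 60.0%, and the part of base composition in these shares was not tested. The sequences follow 5′ to 3′ along each gene's strand, with TGANTCA in capitals for Ptgds (chr2:25469700-25469999, minus strand) and the interferon-stimulated core or its reverse complement for Cxcl10 (chr5:92348840-92349139, minus strand) and Gbp3 (chr3:142559794-142560093, plus strand).
Ptgds: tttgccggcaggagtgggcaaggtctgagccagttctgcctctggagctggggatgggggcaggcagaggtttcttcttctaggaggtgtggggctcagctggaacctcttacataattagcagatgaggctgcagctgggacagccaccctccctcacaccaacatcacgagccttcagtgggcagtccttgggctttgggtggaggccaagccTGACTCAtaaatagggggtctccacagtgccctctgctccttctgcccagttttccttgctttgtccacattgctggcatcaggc
Cxcl10: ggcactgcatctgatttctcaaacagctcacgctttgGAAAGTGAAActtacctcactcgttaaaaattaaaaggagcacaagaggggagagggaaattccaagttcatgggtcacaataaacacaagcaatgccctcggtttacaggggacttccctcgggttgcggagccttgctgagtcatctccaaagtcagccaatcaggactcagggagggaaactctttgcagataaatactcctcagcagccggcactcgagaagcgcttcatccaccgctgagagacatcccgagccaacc
Gbp3: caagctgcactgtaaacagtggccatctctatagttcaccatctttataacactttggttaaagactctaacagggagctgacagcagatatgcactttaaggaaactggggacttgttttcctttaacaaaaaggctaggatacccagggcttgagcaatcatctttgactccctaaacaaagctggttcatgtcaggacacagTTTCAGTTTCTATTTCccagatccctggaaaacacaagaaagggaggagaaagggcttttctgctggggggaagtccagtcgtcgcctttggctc
The run of capitals in Gbp3 is 2 matches on the opposite strand that share bases, and it lies just before the start of transcription. That of Ptgds also lies just before the start, and that of Cxcl10 near the far end of the window. These genes were picked after the matches were seen, a second promoter is listed for Gbp3, and a match is not evidence of binding.

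Genes of tubular injury were among the largest differences. Of 24 tested genes of injured and incompletely repaired tubules, 10 rose, none fell, and the median log2 fold change was 1.77. Krt20, a keratin of surface epithelia that injured tubules switch on, had 0 to 0.356 CPM in the 6 non-cystic libraries. In F4/80-low libraries it had 13.0 and 13.0 CPM in kidney 1, 5.90 and 87.3 CPM in kidney 2 and 47.6 and 27.8 CPM in kidney 3. Every F4/80-low library therefore lay above every non-cystic one, and the log2 fold change was 8.07 ± 0.52 (adjusted p = 0.000301, quasi-likelihood test).

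Havcr1, which encodes the injury marker KIM-1, had 0.168 to 3.50 CPM in non-cystic libraries (median 0.474) and 8.85 to 740 CPM in F4/80-low libraries (median 70.2). The F4/80-low values spread far more, 740 CPM in kidney 2 replicate 2 and 8.85 CPM in replicate 1 of the same kidney, and the log2 fold change of 7.38 ± 0.97 (adjusted p = 0.0223) lost its call without the former (5.99, adjusted p = 0.151). Vcam1, an adhesion molecule of endothelium and of tubules that fail to repair, had 1.34 to 10.5 CPM against 15.8 to 173 CPM, with a fitted log2 change of 3.89 ± 0.31 (adjusted p = 0.000421). Sox9, a transcription factor of regenerating tubules, rose by 3.62 ± 0.44, Cd44, the hyaluronan receptor, by 2.35 ± 0.27, and Anxa2, an annexin of membranes, by 2.35 ± 0.35 (adjusted p = 0.00732, 0.00510 and 0.0137). All 6 F4/80-low libraries lay above all 6 non-cystic libraries for each of these 4 genes. Without kidney 2 replicate 2, Cd44 and Anxa2 kept their calls (adjusted p = 0.0485 and 0.0403), and Vcam1 and Sox9 lost theirs (adjusted p = 0.150 and 0.113).

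Spp1 and Lcn2, the lipocalin NGAL, did not pass, though Spp1 passed in 13 and Lcn2 in 9 of the 28 alternative analyses. Spp1 had 574 to 3683 CPM in non-cystic and 2609 to 99645 CPM in F4/80-low libraries, with 5 of 6 above every non-cystic library and a log2 fold change of 3.18 ± 0.66 (adjusted p = 0.0509). Without kidney 2 replicate 2 this was 1.80 (adjusted p = 0.443). Lcn2 was at 0 in 3 non-cystic libraries and reached 188 CPM in that same F4/80-low library, with a log2 fold change of 5.17 ± 0.89 (adjusted p = 0.0565). Without that library 3 of the 24 injury genes were called.

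**Figure D2:**
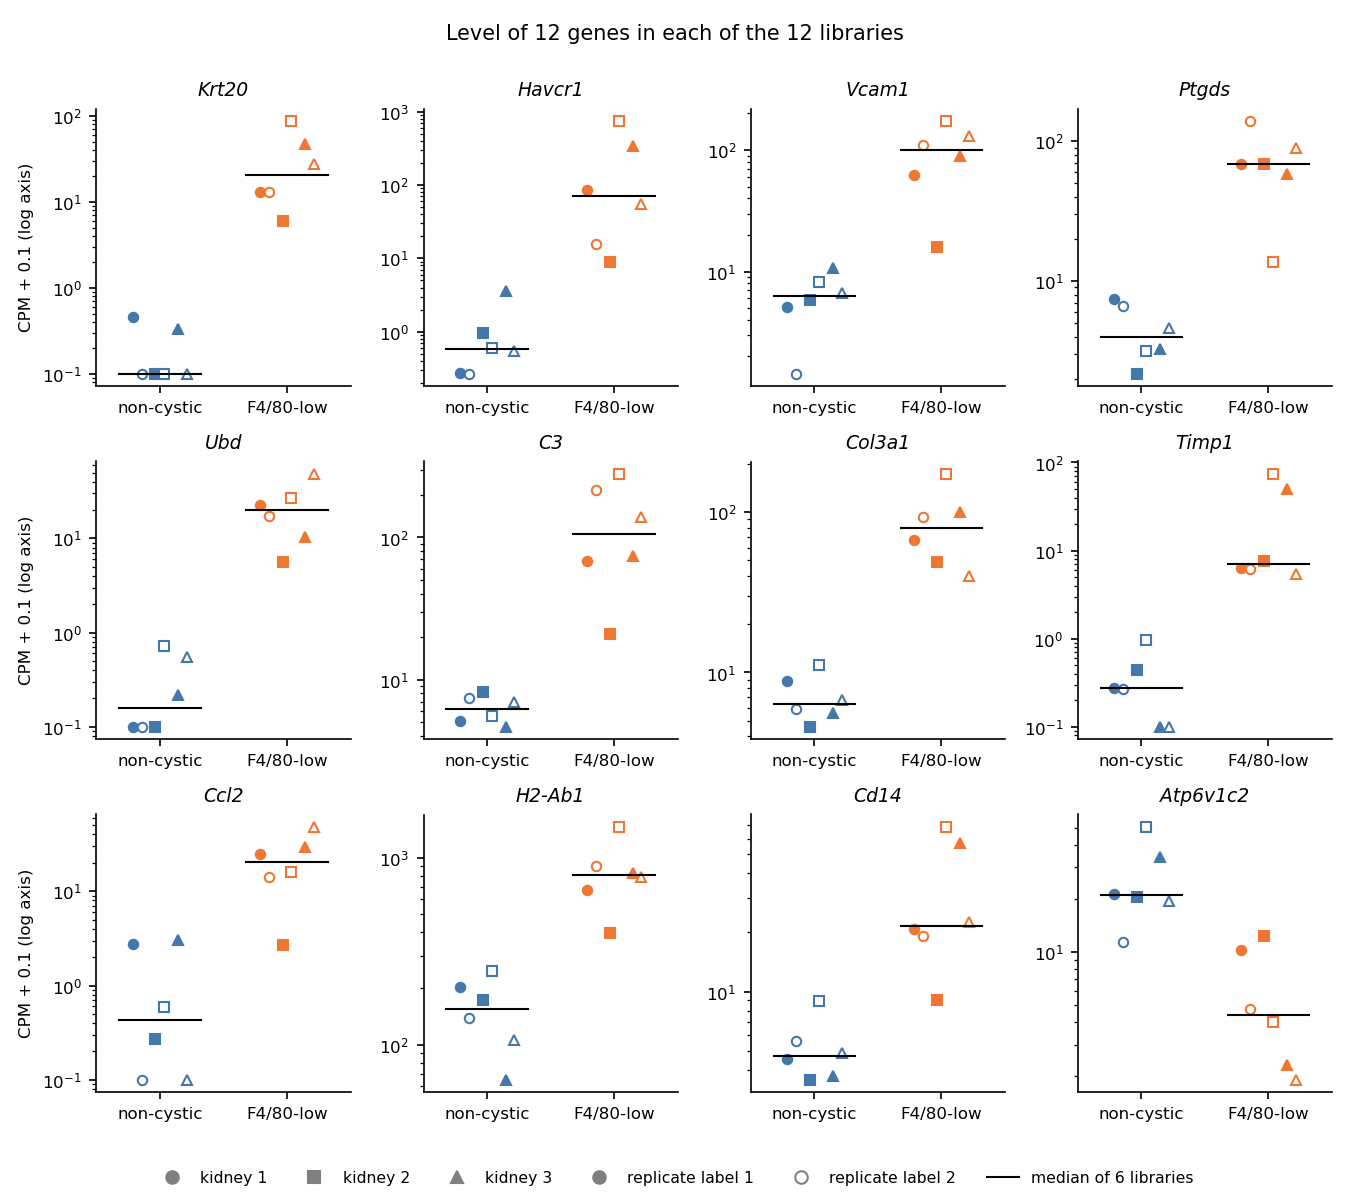
Level of 12 genes, as CPM plus 0.1 on a log axis, in the 6 non-cystic (blue) and 6 F4/80-low cystic (orange) libraries, with the kidney shown by the shape, the replicate label by filled or open points, and the median by a line. For 11 genes the F4/80-low medians lie above the non-cystic ones, from 812 against 156 CPM for H2-Ab1 to 20.4 against 0 CPM for Krt20, and for Atp6v1c2 they lie below.

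Genes of the interstitial matrix were among those that rose. Of 14 fibrillar and beaded collagen genes 6 rose (median 1.64), of 28 matricellular protein and proteoglycan genes 7 rose (median 1.60), and none fell. Col3a1, a fibrillar collagen of connective tissue, had 4.49 to 11.0 CPM in non-cystic and 39.8 to 172 CPM in F4/80-low libraries, a log2 fold change of 3.56 ± 0.31 (adjusted p = 0.000725). Col1a1 and Col1a2, which form type I collagen, rose by 3.00 ± 0.31 and 2.36 ± 0.30 (adjusted p = 0.00252 and 0.00704), from 2.07 to 9.73 CPM up to 28.3 to 88.0 CPM for the first. In all 3 genes the libraries of the region types did not overlap, and all 3 calls held without kidney 2 replicate 2, when 3 of the 14 collagen and 3 of the 28 matricellular genes were called.

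Among secreted matrix proteins, Ltbp2, a protein of elastic microfibrils, had 0 to 0.234 CPM in non-cystic and 0.826 to 7.89 CPM in F4/80-low libraries and rose by 4.95 ± 0.51 (adjusted p = 0.00239). Mgp, an inhibitor of calcification, rose by 2.22 ± 0.29, from 32.1 to 84.5 CPM up to 166 to 445 CPM. Dcn, the small proteoglycan decorin, rose by 1.64 ± 0.20, and Tgfbi, an adhesion protein induced by TGF-beta, by 1.66 ± 0.24 (adjusted p = 0.00735, 0.00649 and 0.0116). The 6 F4/80-low libraries of each lay above the 6 non-cystic ones. The SD of Tgfbi over kidneys was small beside its difference, with 20.3 ± 7.61 CPM in non-cystic regions and 63.1 ± 2.15 CPM in F4/80-low ones, but it lost its call without kidney 2 replicate 2 (adjusted p = 0.0854).

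Of 25 proteases and inhibitors of matrix turnover 2 rose and 1, Slpi, fell (median 1.29). Timp1, an inhibitor of matrix metalloproteinases, had 0 to 0.862 CPM in non-cystic and 5.39 to 73.6 CPM in F4/80-low libraries, a log2 fold change of 6.28 ± 0.72 (adjusted p = 0.0125), which lost its call without kidney 2 replicate 2 (5.44, adjusted p = 0.102). Mmp3, the stromelysin that cleaves many matrix proteins, rose by 4.12 ± 0.65 (adjusted p = 0.0198), and without that library had an adjusted p of 0.0545. Of 16 genes that process and crosslink collagen 2 rose, the crosslinking enzyme gene Loxl2 (1.74 ± 0.31) and the collagen chaperone gene Serpinh1 (1.19 ± 0.23). Of 21 basement membrane genes 1 rose, beside 1.51% of all tested genes, with a list median of 0.38. This was Col4a1, a chain of type IV collagen (1.14 ± 0.22, adjusted p = 0.0361, quasi-likelihood test). None of the genes of these 3 lists was called without kidney 2 replicate 2.

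Markers of fibroblasts, the cells that make such matrix, were among the genes that rose. Of 12 fibroblast genes 5 rose (median 2.00), and 5 were called without kidney 2 replicate 2. Col1a1, Col1a2, Col3a1 and Dcn are among these 5 and also stand in the matrix lists above. The summed level of the fibroblast list was 58.6 to 104 CPM in non-cystic and 185 to 562 CPM in F4/80-low libraries. Of 12 genes of smooth muscle and pericytes 1 rose, Des, the muscle intermediate filament desmin (1.19 ± 0.25, adjusted p = 0.0491), and Pdgfrb, the pericyte receptor, stood at 1.25 ± 0.26 on the log2 scale (adjusted p = 0.0551). None of 14 endothelial genes passed (median 0.46). In bulk tissue, a change in the number of cells of a type and a change in RNA per cell cannot be told apart.

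Several chemokines rose. Of 17 tested CC chemokines 5 rose, with a median of 2.09, and of 13 CXC and CX3C chemokines 5 rose, with a median of 2.09, and none fell. Ccl2, the main attractant of monocytes, had 0 to 2.92 CPM in non-cystic libraries. In F4/80-low libraries it had 24.6 and 14.1 CPM in kidney 1, 2.60 and 16.0 CPM in kidney 2 and 29.5 and 47.8 CPM in kidney 3. The log2 fold change was 4.17 ± 0.31 (adjusted p = 0.000421), and 5 of 6 F4/80-low libraries lay above every non-cystic one.

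Ccl12, a second ligand of the receptor Ccr2, had 0 to 0.492 CPM against 0.798 to 19.6 CPM and rose by 4.84 ± 0.70 (adjusted p = 0.0184). Ccl9, a ligand of Ccr1, rose by 2.49 ± 0.37, and Ccl4, an inflammatory chemokine, by 2.09 ± 0.38 (adjusted p = 0.0171 and 0.0293). Ccl2, Ccl9 and Ccl4 lost their calls without kidney 2 replicate 2, when 1 of the 17 CC and 0 of the 13 CXC and CX3C chemokines were called. The receptor gene Ccr2, carried by recruited monocytes, had 1.21 to 9.55 CPM in non-cystic and 7.55 to 23.6 CPM in F4/80-low libraries and rose by 1.76 ± 0.18 (adjusted p = 0.00239), a call that held without that library.

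Among CXC chemokines, Cxcl2, an attractant of neutrophils, had 0 counts in all 6 non-cystic libraries and 122 counts in F4/80-low libraries, which is at least 35.8-fold higher against a floor of 3 counts over the group. It was at 0 in 1 F4/80-low library and highest, at 8.59 CPM, in kidney 2 replicate 2 (adjusted p = 0.0148). Cxcl16, a membrane-bound ligand of T cells, had 51.9 to 83.3 CPM in non-cystic and 83.2 to 250 CPM in F4/80-low libraries and rose by 1.33 ± 0.21 (adjusted p = 0.0171). Cxcl17, a mucosal chemokine, rose by 2.92 ± 0.57 from levels at or under 0.234 CPM. Il34, which tubules make and which binds Csf1r on macrophages, rose by 1.43 ± 0.21 (adjusted p = 0.0125, quasi-likelihood test). It was the only called gene of 19 cytokines and colony stimulating factors, beside 1.51% of all tested genes called higher. Cxcl17, Cxcl16, Cxcl2 and Il34 all lost their calls without kidney 2 replicate 2.

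Of 37 growth factor ligands 1 rose, beside 1.51% of all tested genes. This was Areg, a ligand of the EGF receptor, with 74 counts against 2. The ratio was 32.6 with an exact 95% counting interval of 8.71 to 274. Areg was at 0 in 2 F4/80-low libraries and reached 8.68 CPM in kidney 3 replicate 2. It lost its call without kidney 2 replicate 2 (adjusted p = 0.280, quasi-likelihood test). Pdgfb, which signals to pericytes and fibroblasts, lay above every non-cystic library in all 6 F4/80-low libraries, at 9.91 to 21.1 CPM against 4.69 to 8.99 CPM, but did not pass (1.13 ± 0.27, adjusted p = 0.0790). Grem1, a secreted BMP antagonist, stood at 2.42 ± 0.66 (adjusted p = 0.160). None of 18 Wnt ligands, modulators and targets passed. These intervals and floors hold the counting error alone, as reads were not tagged by molecule.

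Of 20 complement genes 8 rose and none fell (median 1.77). C3, the central complement protein, had 4.56 to 8.12 CPM in non-cystic libraries. In F4/80-low libraries it had 68.1 and 216 CPM in kidney 1, 21.0 and 279 CPM in kidney 2 and 73.5 and 138 CPM in kidney 3, a log2 fold change of 4.39 ± 0.26 (adjusted p = 0.000105). Without kidney 2 replicate 2 the fold change was 3.62 and the adjusted p 0.0875, although the remaining 5 libraries lay above all non-cystic ones. C4b, a component of the classical pathway, rose by 1.99 ± 0.21, C1qb, a chain of its recognition molecule C1q, by 2.02 ± 0.33, C3ar1, the receptor of the C3a fragment, by 1.90 ± 0.25, and Serping1, the C1 inhibitor, by 1.47 ± 0.27 (adjusted p = 0.00252, 0.0184, 0.00772 and 0.0316). None of the 20 was called without kidney 2 replicate 2.

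Antigen presentation by MHC class II had the highest share of called genes among the 52 lists, 7 of 9, with a median of 1.68. The lists were chosen with earlier results of these data known, so this rank may partly follow from that choice. H2-Ab1, the beta chain of the class II molecule I-A, had 64.8 to 248 CPM in non-cystic and 398 to 1460 CPM in F4/80-low libraries and rose by 2.49 ± 0.35 (adjusted p = 0.0116). H2-DMb2, H2-DMa and H2-DMb1, chains of the chaperone that loads peptides, rose by 3.14 ± 0.25, 2.10 ± 0.23 and 1.80 ± 0.20 (adjusted p = 0.000434, 0.00323 and 0.00323). The libraries did not overlap for H2-Ab1, H2-DMa and H2-DMb1, and 1 F4/80-low library of H2-DMb2 (1.53 CPM) lay within the non-cystic range. Only H2-DMb1 kept its call without kidney 2 replicate 2. Cd74, the invariant chain of class II, which stands in no list, rose by 2.49 ± 0.39 (adjusted p = 0.0173). Of 16 class I and immunoproteasome genes 3 rose (median 0.91), among them the immunoproteasome subunits Psmb8 (1.72 ± 0.23) and Psmb10 (1.09 ± 0.19). Without kidney 2 replicate 2, where Psmb10 was at 70.1 CPM against 26.8 to 36.7 CPM in the other 5, none of the 16 was called (adjusted p = 0.0980 for Psmb8 and 0.150 for Psmb10), and Cd74 lost its call (adjusted p = 0.116).

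Many macrophage genes rose, while Adgre1 did not pass in the main fit and passed in 7 of 28 alternatives. Of 24 macrophage genes 13 rose, none fell, and the median was 1.76. Their summed level was 297 to 495 CPM in non-cystic and 769 to 2026 CPM in F4/80-low libraries, so the ranges did not overlap. Cd14, the lipopolysaccharide co-receptor, had 3.45 to 8.86 CPM against 8.97 to 68.5 CPM and rose by 2.56 ± 0.26 (adjusted p = 0.00239). Ms4a7, a tetraspan protein of macrophages, rose by 2.07 ± 0.23, Aif1, the calcium-binding protein IBA1, by 2.03 ± 0.25, and Cx3cr1, the fractalkine receptor of resident macrophages, by 2.01 ± 0.26 (adjusted p = 0.00330, 0.00656 and 0.00732). Ms4a7 and Aif1 kept their calls without kidney 2 replicate 2 (adjusted p = 0.0195 and 0.0240), when 3 of the 24 were called, and Cd14 and Cx3cr1 lost theirs (adjusted p = 0.212 and 0.145).

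Other blood cells showed fewer differences. Of 11 genes of monocytes and neutrophils 2 rose, Ccr2 and Plac8 (1.78 ± 0.20, adjusted p = 0.00352), a gene of circulating monocytes, and the list median was 0.15. Without kidney 2 replicate 2 the median was -0.43, Plac8 lost its call (adjusted p = 0.197), and Ccr2 kept it. S100a8, a calgranulin of neutrophils, had 0 to 7.60 CPM in non-cystic and 0 to 3.78 CPM in F4/80-low libraries, with overlapping ranges and a log2 fold change of -1.92 ± 0.41 (adjusted p = 0.0565). None of 9 dendritic cell genes (median 0.97) and none of 19 lymphocyte genes (median 0.61) passed. The summed lymphocyte level was 16.5 to 530 CPM in non-cystic and 29.9 to 238 CPM in F4/80-low libraries. The part that macrophages had in the rise of the chemokine, complement and class II genes was not tested.

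Of 24 interferon response genes 6 rose (median 1.54). They were uneven between kidneys, with a median log2 difference of 0.76 in kidney 1, 2.03 in kidney 2 and 0.86 in kidney 3. Gbp2, Gbp3 and Gbp7, guanylate-binding GTPases induced by interferon gamma, rose by 2.62 ± 0.39, 2.09 ± 0.36 and 1.56 ± 0.27 (adjusted p = 0.0169, 0.0240 and 0.0243). Gbp3 had 0.335 to 6.28 CPM in non-cystic libraries and 42.2 CPM in F4/80-low kidney 2 replicate 2, with 4.01 to 14.0 CPM in the other 5. Relative to the non-cystic mean, the interferon list had a median of 2.98 in that library and of 0.70 to 0.96 in the other 5. Without it 1 of the 24 was called, the list median was 0.74, and Gbp2, Gbp3 and Gbp7 lost their calls.

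Of 22 NF-kB regulators and targets 10 rose and none fell (median 1.41), and none was called without kidney 2 replicate 2. Tlr2, a receptor of microbial lipoproteins, had 0.168 to 2.42 CPM in non-cystic and 0.590 to 27.1 CPM in F4/80-low libraries and rose by 3.21 ± 0.38 (adjusted p = 0.00566). Icam1, the adhesion molecule of leukocyte entry, rose by 1.41 ± 0.25, from 6.70 to 17.1 CPM up to 14.5 to 45.1 CPM (adjusted p = 0.0293). Of 18 genes of the immediate early and heat shock responses 4 rose (median 0.79). Klf6, a zinc finger factor induced by injury, had 36.2 to 92.3 CPM in non-cystic and 118 to 339 CPM in F4/80-low libraries, with no overlap, and rose by 1.88 ± 0.28. Jun and Fos, whose proteins pair to bind the TGANTCA core, rose by 1.70 ± 0.29 and 1.95 ± 0.34. Egr1, an immediate early factor, rose by 1.44 ± 0.30. The adjusted p of the quasi-likelihood test was 0.0135, 0.0273, 0.0243 and 0.0480 for Klf6, Jun, Fos and Egr1. All 4 lost their calls without kidney 2 replicate 2 (adjusted p = 0.136, 0.223, 0.214 and 0.151).

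Of 22 IL-6 family receptors and STAT3 targets 2 rose (median 1.10), Lrg1, a secreted leucine-rich glycoprotein of the acute phase, and Hp, the hemoglobin-binding protein haptoglobin (2.80 ± 0.54, adjusted p = 0.0433). For Socs3, the feedback inhibitor of this pathway, the change was 1.99 ± 0.45 (adjusted p = 0.0709). Cp, the copper oxidase ceruloplasmin, was the only called gene of 12 iron handling genes and rose by 2.22 ± 0.34, from 11.2 to 39.5 CPM up to 57.9 to 180 CPM. Of 18 serpins 4 rose, led by Serpina10, an inhibitor of coagulation factors, with 0 to 1.11 CPM against 1.77 to 113 CPM and a log2 fold change of 6.93 ± 0.65 (adjusted p = 0.00568). Hp, Cp and Serpina10 lost their calls without kidney 2 replicate 2.

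**Figure D3:**
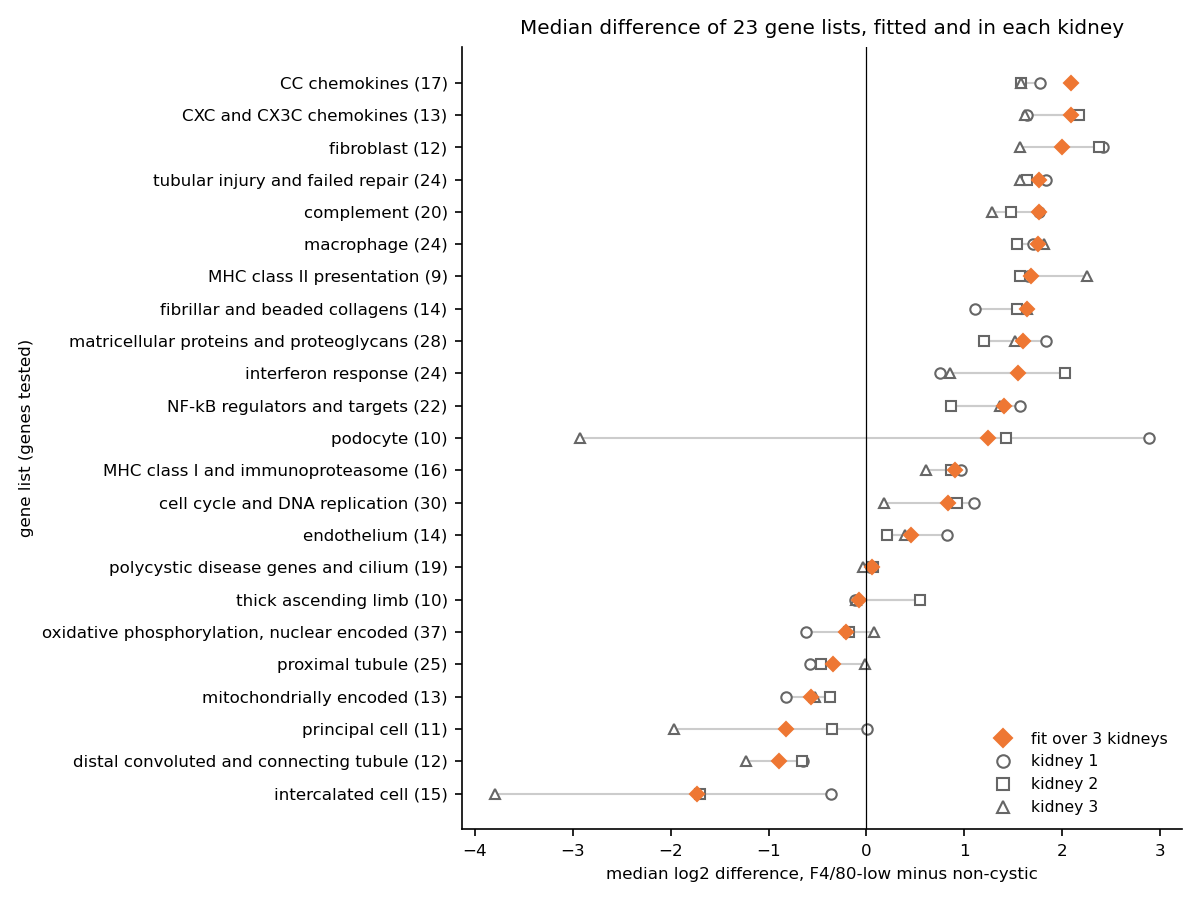
Median log2 difference of F4/80-low from non-cystic regions for 23 gene lists, as fitted over the 3 kidneys (orange diamonds) and within each kidney (open symbols), with the number of genes tested in brackets. Chemokine, injury, matrix, complement and class II lists lie above 0 in each kidney, the intercalated cell list lies at -0.36, -1.70 and -3.80 in kidneys 1, 2 and 3, and the podocyte list changes sign between kidneys.

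The lower genes were few. Atp6v1c2, a subunit of the proton pump of acid-secreting intercalated cells, had 11.2 to 50.6 CPM in non-cystic and 1.80 to 12.3 CPM in F4/80-low libraries. Its log2 fold change was -2.36 ± 0.44 (adjusted p = 0.0390), and 5 of 6 F4/80-low libraries lay below every non-cystic one. Etv1, an ETS transcription factor, had 33.6 to 39.9 CPM against 10.1 to 30.8 CPM, without overlap, a log2 fold change of -0.87 ± 0.17 (adjusted p = 0.0411). Slpi, a secreted inhibitor of leukocyte elastase, had 3.15 to 13.5 CPM against 0.292 to 3.70 CPM and a fold change of -1.70 ± 0.31 (adjusted p = 0.0293). Mymx, which encodes the muscle fusion peptide myomixer, had 3.69 to 14.1 CPM against 0.411 to 3.06 CPM and a fold change of -2.69 ± 0.48 (adjusted p = 0.0290). None of the 4 was called without kidney 2 replicate 2, and of the 28 alternatives Etv1 and Atp6v1c2 lost their calls in 14, Slpi in 11 and Mymx in 7.

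Atp6v1c2 was the only called gene of 15 intercalated cell markers, 1 of 15 against the background of 0.0249% lower genes. This list, too, was chosen with earlier results of these data known. The list had a median of -1.73, 11 of its genes were lower at an unadjusted p below 0.05, and the DESeq2 Wald test called 11 lower. Rhbg, an ammonia transporter of these cells, had 17.9 to 61.7 CPM in non-cystic and 0.150 to 15.2 CPM in F4/80-low libraries without overlap, yet did not pass (-2.61 ± 0.71, adjusted p = 0.202). Slc4a1, the chloride-bicarbonate exchanger of the acid-secreting cells, had 4.49 to 18.9 CPM against 0 to 6.38 CPM (-2.35 ± 0.57, adjusted p = 0.0958). Foxi1, the master transcription factor of the cell type, had 4.36 to 60.7 CPM against 0 to 17.7 CPM (-1.67 ± 0.51, adjusted p = 0.221). The median difference of the list was -0.36 in kidney 1, -1.70 in kidney 2 and -3.80 in kidney 3, and the summed level was 555 to 1952 CPM in non-cystic and 270 to 795 CPM in F4/80-low libraries.

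Other tubule segments gave no called gene by edgeR, while the DESeq2 Wald test called 3 genes lower in each of the distal convoluted and connecting tubule and principal cell lists, 2 lower and 1 higher in the proximal tubule, and 1 lower in the thick ascending limb. The 12 genes of the distal convoluted and connecting tubule had a median of -0.89, with Pvalb, the calcium buffer of the early distal convoluted tubule, at 12.5 to 132 CPM in non-cystic and 0 to 84.1 CPM in F4/80-low libraries (-2.16 ± 0.42, adjusted p = 0.0590). The 11 principal cell genes had a median of -0.82, which was 0.01 in kidney 1, -0.35 in kidney 2 and -1.96 in kidney 3. The 25 proximal tubule genes had a median of -0.34, 22 of them below 0, and Gatm, the first enzyme of creatine synthesis, had 305 to 693 CPM against 63.3 to 520 CPM (-1.21 ± 0.34, adjusted p = 0.152). The 10 genes of the thick ascending limb had a median of -0.07. Of these, Slc12a1, the salt transporter NKCC2, had overlapping values of 0 to 271 CPM in non-cystic and 60.4 to 309 CPM in F4/80-low libraries (0.97 ± 0.31, adjusted p = 0.228).

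Podocyte markers differed in sign between kidneys. The 10 genes had a median log2 difference of 2.89 in kidney 1, 1.42 in kidney 2 and -2.93 in kidney 3, and a fitted median of 1.24 with 0 called. Podxl, which encodes podocalyxin of the podocyte surface, had 129 and 133 CPM in the F4/80-low libraries of kidney 1, 99.4 and 17.8 CPM in kidney 2 and 17.1 and 15.4 CPM in kidney 3, against 15.2 to 64.6 CPM in non-cystic libraries. Synpo, the actin regulator synaptopodin, had 1.34 to 25.8 CPM in non-cystic libraries and 5.24 to 56.5 CPM in F4/80-low ones. How many glomeruli and distal segments fell into each dissected region is not given in the labels, and their part in the results was not tested.

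**Figure D4:**
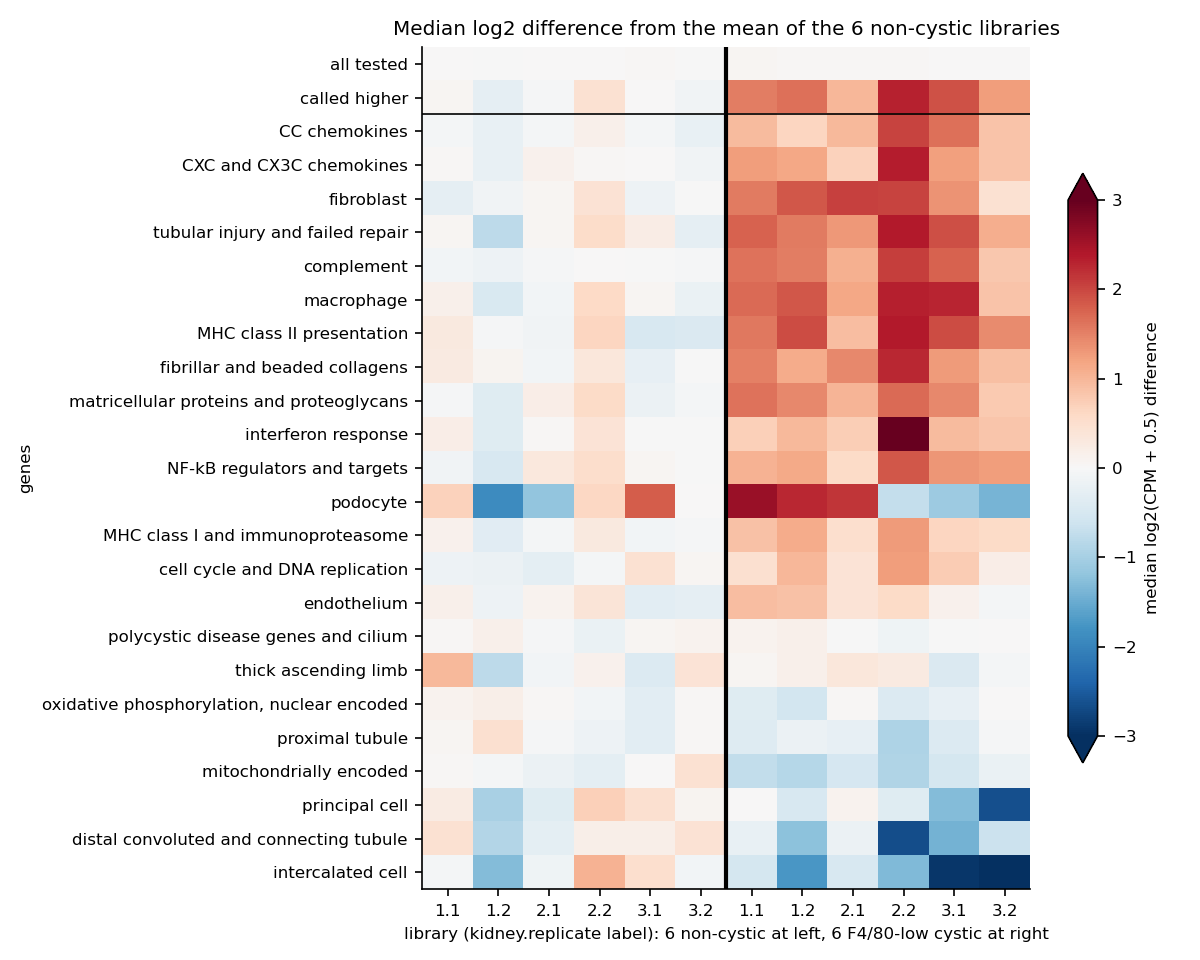
Median log2(CPM + 0.5) difference from the mean of the 6 non-cystic libraries, by colour, for all tested genes, the genes called higher and 23 gene lists (rows) in each of 12 libraries (columns, kidney and replicate label). The F4/80-low library 2.2 has the highest value for the genes called higher, 2.32, and for the interferon list, 2.98, while the intercalated cell list is lowest in the F4/80-low libraries of kidney 3.

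Genes of cilia and cystic disease gave no call. None of 19 tested polycystic disease and cilium genes passed in either direction by edgeR or by DESeq2, the list median was 0.06 and its range -0.30 to 0.33. Pkd2, which encodes polycystin-2, had 71.3 to 104 CPM in non-cystic and 67.4 to 97.1 CPM in F4/80-low libraries (-0.15 ± 0.15, adjusted p = 0.826). Pkhd1, the gene of recessive polycystic disease, had 85.5 to 119 CPM against 102 to 154 CPM (0.30 ± 0.17, adjusted p = 0.602). Cdh16 (-0.10 ± 0.24, adjusted p = 0.937) and Pkd1 (0.20 ± 0.33, adjusted p = 0.903) did not pass. None of 21 genes of cyclic AMP signalling, a pathway that drives cyst fluid secretion, passed by edgeR, with a median of 0.13. The DESeq2 Wald test called 1 of them higher and none lower, beside 601 higher among all 16034 tested genes.

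Proliferation and metabolism gave few calls. Of 30 cell cycle and DNA replication genes 1 rose, beside 1.51% of all tested genes. This was Mcm5, a subunit of the replicative helicase (1.79 ± 0.35, adjusted p = 0.0375, quasi-likelihood test). Mcm5 lost its call without kidney 2 replicate 2 (adjusted p = 0.136). The list median was 0.83, and 28 of 30 genes lay above 0. Mki67, the proliferation marker Ki-67, had 4.31 to 13.6 CPM in non-cystic and 12.1 to 41.0 CPM in F4/80-low libraries (1.59 ± 0.40, adjusted p = 0.122). Cdkn2b, an inhibitor of the cell cycle, had 109 counts against 2, a ratio of 48.0 with an exact 95% counting interval of 13.0 to 401, and did not pass (adjusted p = 0.0522). None of 18 cell cycle inhibitors and p53 targets passed by edgeR (median 0.19). The DESeq2 Wald test called 5 of them higher and none lower, beside 601 higher among all 16034 tested genes.

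None of 37 nuclear genes of oxidative phosphorylation passed by edgeR or by DESeq2, and 36 had fitted changes below 0, the range being -0.37 to 0.02. The kidneys differed in sign, with a list median of -0.62 in kidney 1, -0.17 in kidney 2 and 0.08 in kidney 3. The 13 mitochondrially encoded genes had a median of -0.57 and none passed. For mt-Co1, a subunit of complex IV, all 6 F4/80-low libraries (12899 to 18293 CPM) lay below all 6 non-cystic ones (19834 to 25435 CPM), with a log2 fold change of -0.52 ± 0.44 (adjusted p = 0.767). No gene passed by edgeR among 23 genes of fatty acid oxidation, 22 of glycolysis and gluconeogenesis and 17 organic ion and drug transporters. Their medians were -0.12, -0.16 and -0.16. The DESeq2 Wald test called 1 gene of glycolysis and gluconeogenesis higher and none of the others.

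Some called genes belong to none of these groups. Of the 242 higher genes 143 stand in no list. Stc2, the secreted glycoprotein stanniocalcin-2, had 0 to 0.712 CPM in non-cystic and 2.34 to 6.99 CPM in F4/80-low libraries, a log2 fold change of 3.31 ± 0.43 (adjusted p = 0.00732), which held without kidney 2 replicate 2 (adjusted p = 0.0240). Edn1, the gene of the vasoconstrictor endothelin-1, had 0.227 to 1.60 CPM against 1.80 to 7.42 CPM and rose by 1.97 ± 0.35 (adjusted p = 0.0277). Agt, which encodes angiotensinogen, the precursor of angiotensin, had 2.76 to 8.21 CPM against 8.61 to 66.0 CPM and rose by 2.38 ± 0.33 (adjusted p = 0.0124). These 3 secreted factors were picked after their values were seen. The libraries of the region types did not overlap for any of them, and Edn1 and Agt lost their calls without kidney 2 replicate 2.

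Fabp4 and Axl do stand in lists, each as the only called gene, of 2 tested adipocyte genes and of 12 YAP and TEAD targets. Fabp4, a fatty acid carrier of adipocytes and capillary endothelium, rose by 1.50 ± 0.28 (adjusted p = 0.0345) and was uneven between kidneys. It had 82.3 and 101 CPM in the F4/80-low libraries of kidney 1, 315 and 289 CPM in kidney 2 and 122 and 58.5 CPM in kidney 3, against 23.9 to 95.5 CPM in non-cystic libraries. Axl, a receptor for cleared cell debris, rose by 1.25 ± 0.22 (adjusted p = 0.0240), with 18.1 to 31.9 CPM against 6.37 to 12.5 CPM and no overlap. Both lost their calls without kidney 2 replicate 2 (adjusted p = 0.0875 for each).

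The F4/80-high regions of the same kidneys give a second cystic tissue to set beside these values. Against non-cystic regions, 19.7% of tested genes were higher and 19.5% lower there, and between F4/80-high and F4/80-low regions 10.3% were higher in the former and 14% lower. The comparisons share libraries, so only values are given side by side. Over non-cystic regions, the log2 fold change of Col3a1 was 5.26 in F4/80-high and 3.56 in F4/80-low regions, and that of Ubd 8.27 and 6.59. The median log2 difference of the 242 genes from the non-cystic mean was 3.10 to 3.58 in the F4/80-high libraries, against 1.01 to 2.32 in the F4/80-low ones.

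A few called genes were as high or higher in F4/80-low regions, and they were picked for that pattern. Lrg1 had 4.14 to 10.7 CPM in non-cystic, 9.86 to 287 CPM in F4/80-low and 6.22 to 76.6 CPM in F4/80-high libraries. Its log2 fold change over non-cystic regions was 3.88 ± 0.44 in F4/80-low (adjusted p = 0.00848) and 2.45 ± 0.41 in F4/80-high regions. Sprr1a, a cornified envelope protein induced in stressed cells, had fold changes of 3.62 ± 0.34 and 2.48 ± 0.33, but its F4/80-low libraries ran from 0 to 118 CPM and overlapped both other region types. Cxcl10, the interferon-induced chemokine whose promoter is shown above, had 0 to 2.49 CPM in non-cystic, 1.89 to 126 CPM in F4/80-low and 5.33 to 20.2 CPM in F4/80-high libraries, with fold changes of 4.64 ± 0.63 (adjusted p = 0.0184) and 2.87 ± 0.61. All 3 lost the F4/80-low call without kidney 2 replicate 2 (adjusted p = 0.317, 0.167 and 0.150), the library that was highest for each. Their F4/80-low fold changes were then 2.94 for Lrg1, 2.67 for Sprr1a and 3.17 for Cxcl10, nearer to those of F4/80-high regions.

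Agt and Tgfbi stood at like levels in both cystic region types, with 32.3 ± 15.5 and 30.2 ± 6.65 CPM for Agt and 63.1 ± 2.15 and 65.4 ± 7.56 CPM for Tgfbi (SD, n = 3 kidneys) in F4/80-low and F4/80-high regions. Slpi went the other way, with 7.09 ± 3.50 CPM in non-cystic, 2.21 ± 1.32 CPM in F4/80-low and 13.9 ± 4.31 CPM in F4/80-high regions. All 6 F4/80-high libraries of Slpi (4.91 to 25.3 CPM) lay above all 6 F4/80-low ones, with a log2 difference of 2.78 ± 0.31 (adjusted p = 0.00101).

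**Figure D5:**
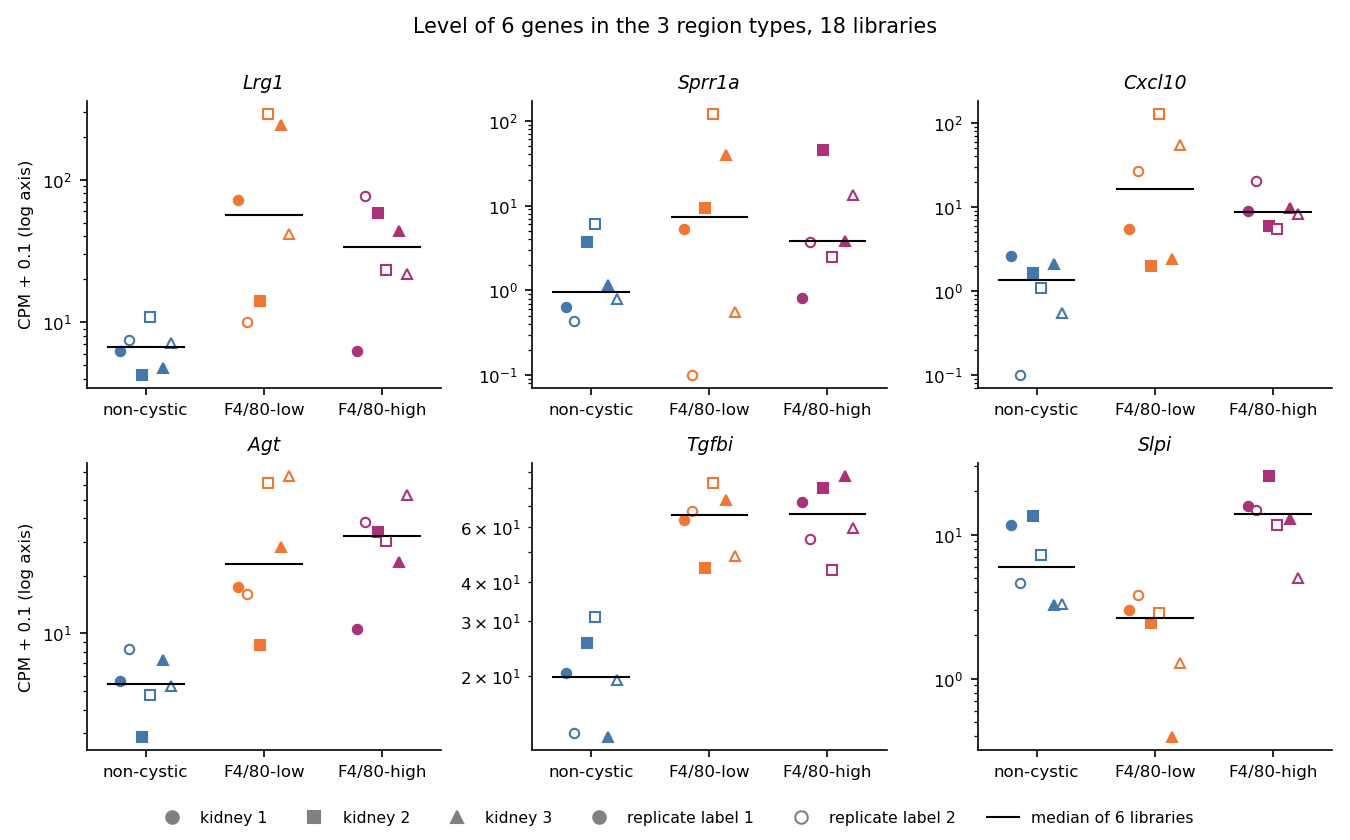
Level of 6 genes, as CPM plus 0.1 on a log axis, in 6 non-cystic, 6 F4/80-low and 6 F4/80-high cystic libraries, with kidneys by shape, replicate labels by filled or open points and the median of each region type as a line. The F4/80-low median of Lrg1, 56.4 CPM, is the highest of its 3 region types, Tgfbi is alike in both cystic types, and Slpi is lowest in F4/80-low regions.

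Whether the difference between regions was the same in each kidney was tested with the libraries kept apart. Of 14715 genes 3 (0.0204%) had a called interaction of kidney and region, and none of the 242 higher genes was among them, with 4 of the 242 at an unadjusted p below 0.05. The test that called the 242 measures each difference against the spread of region differences over kidneys, pooled over all 3 region types. It thus favours genes with little interaction, and these counts follow from that choice. Lsm4, a subunit of the RNA-binding ring of U6, had 26.6 and 21.4 CPM in the non-cystic libraries of kidney 3 and 85.1 to 137 CPM in the other 4, against 90.1 to 134 CPM in F4/80-low libraries (adjusted p = 0.00345). Mmp11, the matrix metalloproteinase stromelysin-3, had 82.2 and 71.6 CPM in the same non-cystic libraries and 230 to 343 CPM in the other 4, against 176 to 285 CPM in F4/80-low libraries. Chchd10, a mitochondrial protein, had 210 and 222 CPM there and 625 to 864 CPM in the other 4, against 464 to 781 CPM (adjusted p = 0.0296 for both). Mmp11 and Chchd10 are neighbours on chromosome 10 (75923222 to 75936496 and 75933130 to 75937747 in GRCm38) and overlap on opposite strands, so their reads may not be separable.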

How the data were processed

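RNA was extracted with TRI reagent from regions microdissected from frozen kidney sections, followed by a NEBNext kit for low input, per the labels' protocols. The authors deposited raw read counts per gene for 18 libraries. FastQC 0.11.9, fastp 0.20.1, HTSeq 0.11.0 and the build GRCm38 (mm10) are named in the submitters' processing notes. For the aligner, annotation release and strand setting, nothing is given in the sources used here. Gene positions came from GENCODE M21.

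The 2 libraries from each region of each kidney were summed, giving 9 sums. Genes passing filterByExpr were tested with edgeR 4.0.16 (R 4.3.3), with TMM factors, quasi-likelihood tests, kidney as a block and all 3 region types in the model, and Benjamini-Hochberg adjustment over all tested genes at 0.05. The fold changes' standard errors are the absolute log2 fold change divided by the square root of the F statistic of the same fit. They hold no separate measure of counting error. For genes near 0 counts in non-cystic regions they can be too small. The kidney block rests on the labels, since the regions were cut from the same numbered kidneys. The correlation of the sums' deviations from their region means was 0.01, 0.28 and -0.05 between the compared regions of kidneys 1, 2 and 3. The kidney by region interaction used the 12 libraries singly. CPM are TMM-scaled, per library or per sum. DESeq2 1.42.0 and limma 3.58.1 served as alternatives, besides other scalings, filters, units of replication and left-out kidneys and libraries. The tests were checked on simulated counts with known changes and no deviant library, which does not cover the dependence on single libraries.

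The genes and lists were chosen with earlier results of these data known. Named genes were those with the largest fold changes or smallest p among called genes whose log2 CPM averaged 3 or more, the lower genes, those with the largest gain or loss in CPM, the 6 smallest p of the interaction, up to 4 of smallest p in each list, and Pkd1, Pkd2, Adgre1 and Cdh16, some of which are left out. Mymx, Sprr1a, Stc2, Edn1 and Agt were added after their values were seen. Nothing in the labels says that the regions came from separate mice, so p-values measure the spread between these kidneys, pooled over all 3 region types.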

Additional observations from a re-analysis of the deposited data

Results flagged for a closer look

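Of 202 sets of 6 libraries of a named gene and region type, 12 had 1 library far from the other 5, and chance flags about 1 in 20 such sets. In F4/80-low kidney 2 replicate 2, Psmb10 was high at 70.1 CPM (others 26.8 to 36.7) and Ptgds low at 13.5 CPM (others 58.6 to 139). In replicate 1 of that kidney, Aoc1 was low at 3.30 CPM (17.0 to 24.4), Ccr2 low at 7.55 CPM (15.8 to 23.6), Cx3cr1 low at 1.89 CPM (7.93 to 10.1) and Mmp11 high at 285 CPM (176 to 211). All 6 F4/80-low flags thus fell on kidney 2.

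Among non-cystic libraries, kidney 2 replicate 2 was high for Grem1 at 4.68 CPM (0.178 to 0.345), for Serpina10 at 1.11 CPM (0 to 0.234) and for Mmp3 at 0.739 CPM (0 to 0.178). Kidney 1 replicate 2 was low for Loxl2 at 1.01 CPM (4.31 to 6.94) and for Gbp2 at 0 CPM (2.45 to 4.63). Cdkn2b was at 0.356 CPM in kidney 1 replicate 1 and at 0 in the other 5.

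The difference between regions itself differed between kidneys for Lsm4, at -0.50, 0.28 and 2.10 in kidneys 1, 2 and 3 on the log2 scale (edgeR interaction test, adjusted p = 0.00345), for Mmp11, at -0.88, -0.13 and 1.42, and for Chchd10, at -0.83, -0.10 and 1.53 (adjusted p = 0.0296 for both).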

How the results depend on the processing

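The 242 higher and 4 lower genes became 500 and 23 with no filter, 601 and 74 by the DESeq2 Wald test, 570 and 31 with 18 libraries taken as separate samples, and 501 and 21 with kidney and replicate number as a replicate block. With no replicate block they were 258 and 4. The differences between replicates 1 and 2 correlated by -0.09 to 0.11 between regions of a kidney. These values show no pairing by number and cannot exclude it. The 6 sums of the compared regions alone gave 313 higher and 28 lower genes. Kidney as a random effect gave 192 and 11, of which only 111 were among the 246. Libraries with replicate label 1 alone gave 33 and 0, and those with label 2 alone 45 and 1. Without kidney 1 the counts were 22 and 1, without kidney 2 141 higher, and without kidney 3 549 and 29. Scaling by total counts gave 1 lower gene and moved the median of all genes to 0.13, so differences are read against that shift.

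Leaving out 1 library at a time gave 31 to 381 higher and 0 to 12 lower genes. No gene was lower without the F4/80-low library of kidney 2 replicate 2 or of kidney 3 replicate 1. 12 were lower without F4/80-low kidney 1 replicate 1 and 7 without non-cystic kidney 2 replicate 2, 1 without non-cystic kidney 1 replicate 1, and 2 without non-cystic kidney 2 replicate 1, non-cystic kidney 3 replicate 2 or F4/80-low kidney 1 replicate 2. The 3 interaction calls became 388 with no filter, 1 by total counts, 0 with all 18 libraries, and 0 to 58 without 1 library. They were 58 without F4/80-low kidney 2 replicate 1, 22 without replicate 2 of that kidney, 15 without non-cystic kidney 1 replicate 1, 8 and 6 without the non-cystic replicates 2 and 1 of kidney 2, 0 without non-cystic kidney 3 replicate 2, and 1 without non-cystic kidney 1 replicate 2, non-cystic kidney 3 replicate 1, F4/80-low kidney 1 replicate 1 or F4/80-low kidney 3 replicate 2. The causes were not tested.

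Of the 101 named genes 75 were called, and these 75 kept their direction in every alternative that gave them a value. Areg and Cxcl2 had no value in some alternatives. Without F4/80-low kidney 2 replicate 2, 57 of the 75 lost the call. Of the 26 named genes not called, 17 were called in some alternative, with Spp1 in 13, Pdgfrb in 10, Lcn2 in 9 and Cdkn2b in 8. Direction reversed only for genes that were not called. Pkd1 was at -0.42 with replicate label 2 alone and -0.20 without kidney 1, and Cdh16 at 0.021 by total counts and 0.067 with replicate label 1 alone. Without kidney 3, Lsm4 was at -0.17, Mmp11 at -0.55 and Chchd10 at -0.52, and with no replicate block Mmp11 was at -0.10 and Chchd10 at -0.020. With 3 kidneys and 4 residual degrees of freedom, a gene that missed the threshold is not shown to be alike in both regions.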
